A study of Mus musculus with 8 samples.

Results

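The genes described here encode homeobox transcription factors of 7 families (Lhx, Dlx, Irx, Nkx, Otx, Hox and the Six-type genes), measured in thalamic tissue of 8 mice. A gene was taken where a probe set of the array carried 1 gene symbol beginning with one of these names followed by a digit, or by a letter and a digit. This gave 82 probe sets for 81 genes, of 19938 genes with such a probe set, and the probe set with the highest mean stood for a gene. The 81 genes were 38 Hox, 13 Nkx, 8 Lhx, 7 Dlx, 7 Irx, 6 Six-type and 2 Otx genes, among them a few long non-coding RNAs named for the homeobox gene beside them. Of 94 RefSeq symbols of these families, 13 had no such probe set and were not analysed here. No gene was left out for low signal. The 38 genes with a mean log2 level under 5.63, below which lay the dimmest 40% of the probe sets of the array, are given here as dim, and the 43 others were tested. Lhx5, with a mean of 5.68, lay just inside this limit and Lhx3, with 5.59, just outside it.

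The mice were male C57BL/6, an inbred laboratory strain, and 6 weeks old per the labels. They formed 4 groups with 2 arrays each, 1 array per mouse. Control mice were injected with saline into the abdomen daily for 4 weeks. MPTP mice received MPTP over the same 4 weeks, in doses of 20 mg/kg given 24 hr apart. MPTP is a toxin of dopaminergic neurons, from which chronic mouse models of Parkinson's disease are made. Acupoint mice received MPTP and were needled by hand on both sides at GB34 (3 mm deep) and LR3 (1 mm deep), in 14 sessions 48 hr apart. Non-acupoint mice received MPTP and were needled in the same way at both hips. No group received needling without MPTP. The study set MPTP against saline and then needling at the named points against needling elsewhere, on the same background of MPTP. The 6 mice of the last 3 groups are called injected below.

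Homeobox genes carry a DNA-binding homeodomain and divide the embryonic nervous system into territories along its length and from top to bottom. Many stay on in the adult neurons of the territory in which they acted, so that their RNA marks where a piece of tissue came from. Lhx2 and Lhx9 mark thalamus and habenula, Otx2 the choroid plexus, Dlx genes the inhibitory neurons of the forebrain, Nkx2-1 and Lhx5 hypothalamic fields, Irx genes the caudal diencephalon and midbrain, and Hox genes the hindbrain and spinal cord. The genes were followed here as markers of tissue position.

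The labelled tissue could be checked against its markers, from lists chosen with earlier results of these data known. All 15 thalamic neuron markers were at or above the limit, with a mean log2 level between 9.18 and 10.1 on every array, and the markers of striatum, hypothalamus and midbrain dopaminergic neurons were also present on every array. The first mouse of the MPTP group and the first of the non-acupoint group had arrays unlike the rest. Over the 15791 named probe sets at or above the limit they correlated at 0.982 with each other. They correlated at 0.905 to 0.936 with the other 6 arrays, which correlated at 0.981 to 0.995 among themselves. Most counts and medians below are given both with and without these 2 arrays, and without them the lone remaining mouse of either group is assumed to vary like the others. With limma and Benjamini-Hochberg adjustment over 15791 probe sets, no homeobox gene passed an adjusted p of 0.05 in any of the 4 comparisons. The p-values measure the spread between 2 mice per group, pooled over the groups. In bulk tissue, fewer cells of a type and less RNA per cell cannot be told apart.

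The sequence just before the start site is shown for 4 genes on which the comparisons below turn, because their levels in injected mice lay on different sides of the controls. The letters are RefSeq's on mouse GRCm38.p6, 250 bases up to the start site, 5′ to 3′ on the gene's strand. For Otx2 the window is that of the outermost of its listed start sites. Capitals mark a match to TAATTA, the core bound by many homeodomains, or to TAATCC, the form preferred by Otx proteins, on either strand, without overlaps.

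Otx2, chr14:48667645-48667894 (minus strand): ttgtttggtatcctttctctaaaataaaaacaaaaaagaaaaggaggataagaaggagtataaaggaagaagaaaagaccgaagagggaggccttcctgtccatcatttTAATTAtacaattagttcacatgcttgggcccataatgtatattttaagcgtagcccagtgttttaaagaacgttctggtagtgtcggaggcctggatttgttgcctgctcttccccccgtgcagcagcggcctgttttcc
Lhx9, chr1:138842445-138842694 (minus strand): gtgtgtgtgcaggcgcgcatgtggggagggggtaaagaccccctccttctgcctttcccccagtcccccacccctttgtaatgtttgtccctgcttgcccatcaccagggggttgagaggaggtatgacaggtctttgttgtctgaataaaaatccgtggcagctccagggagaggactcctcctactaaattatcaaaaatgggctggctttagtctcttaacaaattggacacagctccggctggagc
Nkx2-4, chr2:147085346-147085595 (minus strand): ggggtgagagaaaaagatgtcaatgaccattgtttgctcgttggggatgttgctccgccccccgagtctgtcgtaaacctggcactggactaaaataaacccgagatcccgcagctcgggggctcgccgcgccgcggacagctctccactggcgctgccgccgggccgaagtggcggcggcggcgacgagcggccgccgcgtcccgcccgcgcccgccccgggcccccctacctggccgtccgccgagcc
Irx2, chr13:72628570-72628819 (plus strand): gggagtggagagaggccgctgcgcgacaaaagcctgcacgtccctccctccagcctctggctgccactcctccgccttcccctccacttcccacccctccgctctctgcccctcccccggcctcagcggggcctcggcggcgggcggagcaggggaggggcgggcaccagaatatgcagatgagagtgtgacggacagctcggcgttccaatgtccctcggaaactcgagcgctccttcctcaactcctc

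The Otx2 window held 1 TAATTA and no TAATCC, and another Otx2 start site (chr14:48665110-48665359) held 3 and 1. The Lhx9, Nkx2-4 and Irx2 windows held neither. The Nkx2-4 window was rich in the dinucleotide CG, with 33 of them and a GC content of 70.4%, as was that of Irx2 with 19 and 68.4%, against 4 and 53.6% for Lhx9 and 6 and 42.0% for Otx2. RefSeq promoters were matched for 53 of the 81 genes, with 63 start sites. TAATTA was found at 4 of these 63 (6.35%) and at 4.84% of all 32841 promoters, TAATCC at 1 (1.59%) and at 6.25% of all. The median CG count was 14 per window for the homeobox genes and 6 for all promoters. These matches describe the letters only.

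Across the 43 tested homeobox genes, low values in injected mice were the commoner pattern. All 6 injected arrays lay below both control arrays for 16 of 43 genes (37.2%), against 9.66% of all tested probe sets. They lay above both for 1 gene, Lhx9, against 10.3% of all tested probe sets. The 16 genes were Lhx1, Lhx4, Lhx5, Lhx6 and Lhx8, Nkx1-1, Nkx1-2, Nkx2-1, Nkx2-4 and Nkx2-9, Irx2, Irx3, Irx5 and Irx6, Six3os1 and Hoxa4. The distance between the lowest control and the highest injected array was small for most of them, with a median of 0.08 on the log2 scale and more than 0.1 for 5 genes, namely Lhx5, Nkx2-4, Irx2, Irx6 and Six3os1. Lhx5 was counted among the 43 only through its controls, since the mean of its injected arrays (5.46) lay under the limit. Without it the count was 15 of 42 (35.7%). Without MPTP mouse 1 and non-acupoint mouse 1 the count was 20 of 43 (46.5%), against 15.6% of all tested probe sets. Without control mouse 1 it was 25 (58.1%, against 17.4%). Leaving out an array can only keep or raise such a count, for these genes and for all probe sets alike.

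**Figure D1:**
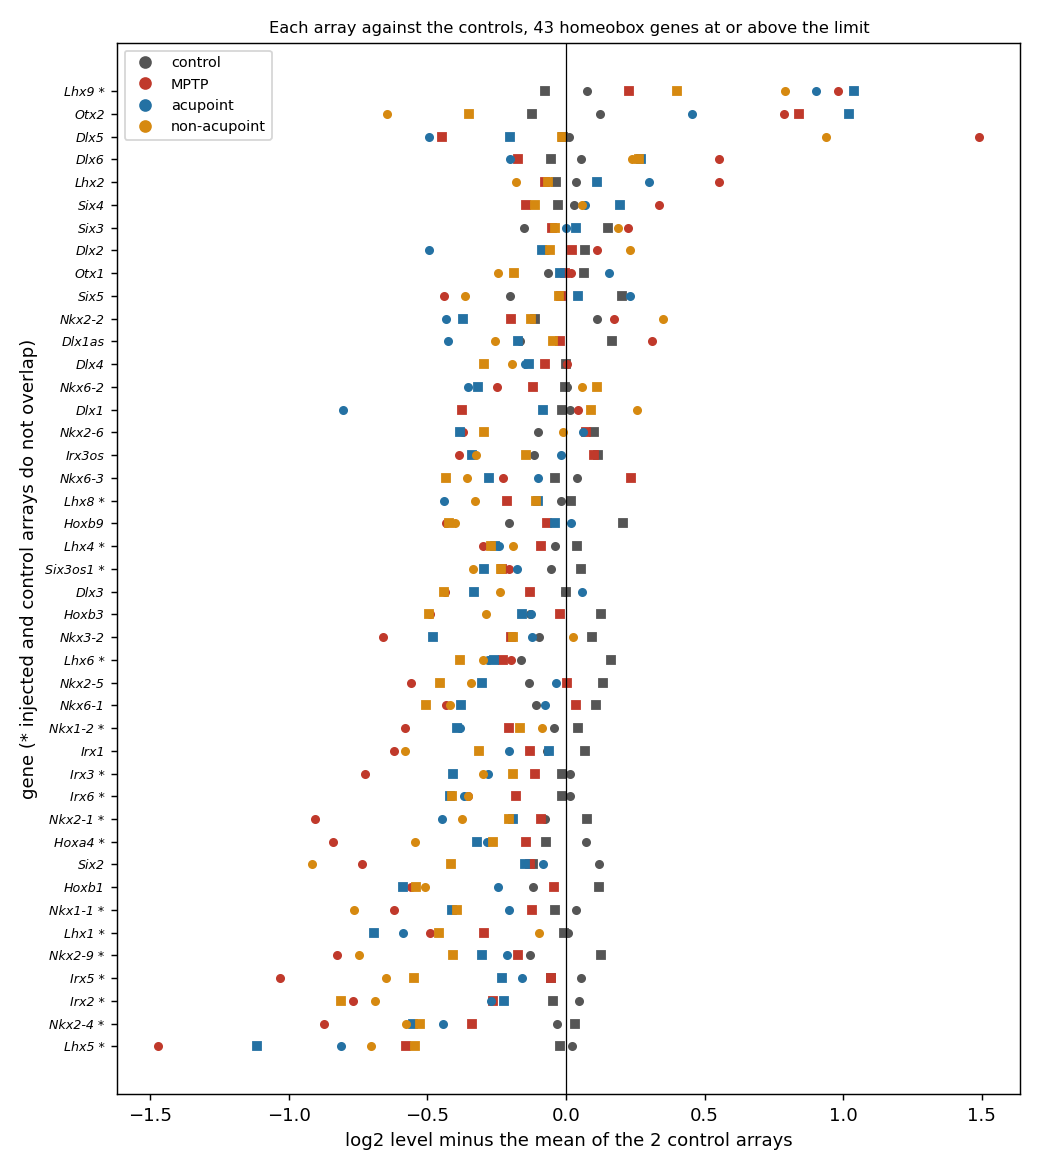
Log2 level of each of the 43 tested homeobox genes on each array minus the mean of the 2 control arrays (horizontal axis), 1 gene per line, ordered by the mean of the injected arrays. Circles are mouse 1 and squares mouse 2 of a group, and a star marks genes whose injected and control arrays do not overlap. Lhx9 stands alone above the controls, 16 genes lie below them, and Lhx5 and Nkx2-4 are clear of the controls on all 6 injected arrays.

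In MPTP against control, 69 of the 81 genes (85.2%) had a lower mean in MPTP mice, and the median difference was -0.22 on the log2 scale. Over all tested probe sets 52.2% were lower, with a median of -0.02, and over all named dim probe sets 66.8% were lower, with a median of -0.08. Of the 43 tested genes 32 were lower, and of the 38 dim genes 37. Without the 2 arrays that stood apart, 55 of 81 were lower with a median of -0.08. By level it was 35 of 43 tested genes (81.4%), against 52.7% of all tested probe sets. For the dim genes it was 20 of 38 (52.6%), which was under the 59.6% of all named dim probe sets. An unadjusted p under 0.05 (limma) was found for 5 of 43 genes (Otx2 higher, Lhx5, Nkx2-4, Irx2 and Nkx1-2 lower, with Lhx5 over the limit only through its controls), and for 5.29% of all tested probe sets. The adjusted p passed for none of the 43, and for 0% of all. Without the 2 arrays the unadjusted count was 6 of 43 (14%), a share near the 15.8% of all tested probe sets.

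**Figure D2:**
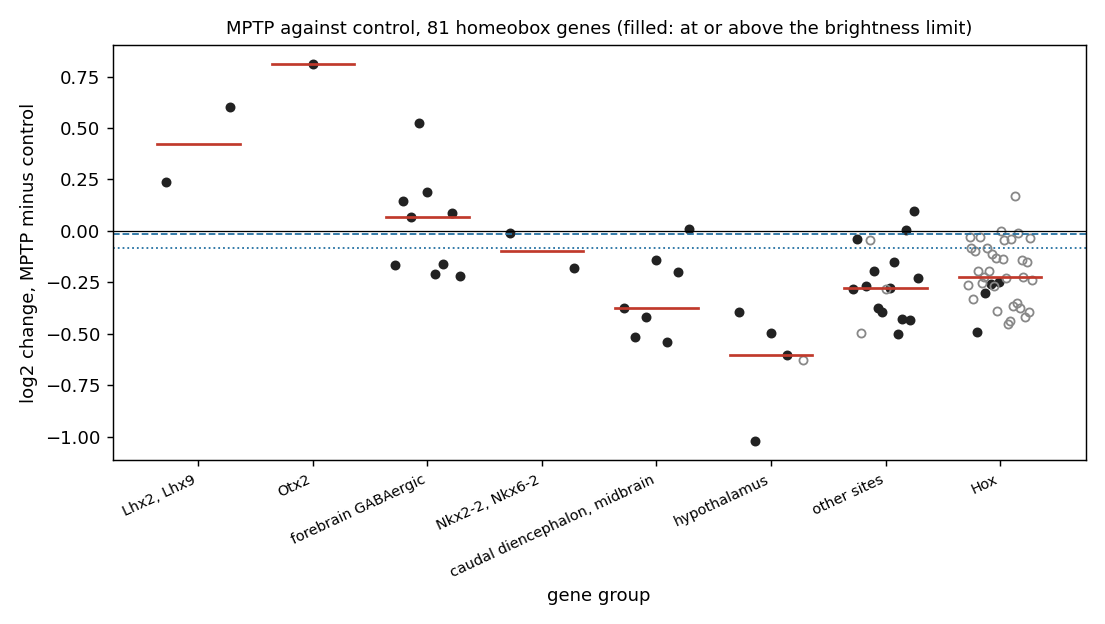
Difference in mean log2 level between MPTP and control mice (vertical axis) for the 81 homeobox genes by the site they mark. Filled points are at or above the brightness limit, open points are dim, red bars are group medians, the dashed line is the median of all tested probe sets and the dotted line that of all named dim probe sets. Otx2 (0.81) and Lhx9 (0.60) are highest and Lhx5 (-1.02) is lowest.

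**Figure D3:**
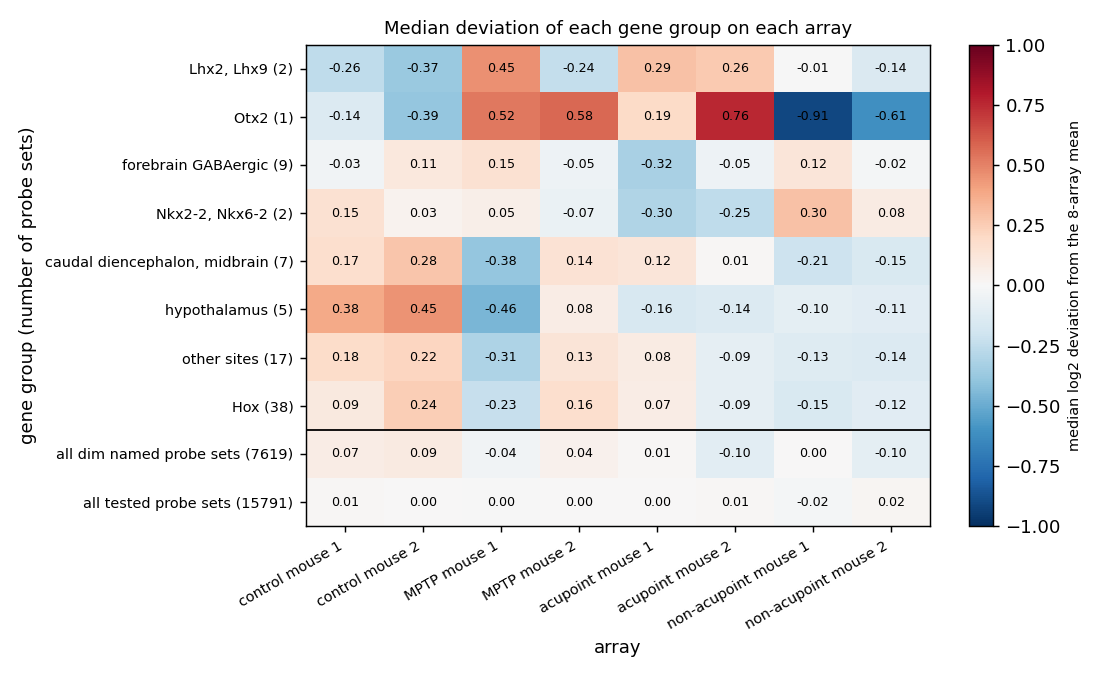
Median deviation from the 8-array mean (log2) of each group of homeobox genes on each array, with the number of probe sets in brackets. The hypothalamic genes are highest on the control arrays (0.38 and 0.45) and lowest on MPTP mouse 1 (-0.46), and the Hox genes lie between -0.23 on that array and 0.24 on control mouse 2.

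Lhx9 and Lhx2, LIM-homeodomain factors of the thalamus and habenula, were the group closest to the labelled tissue. Lhx9 stood at 6.97 and 6.82 in the control mice, 7.87 and 7.12 in the MPTP mice, 7.80 and 7.93 in the acupoint mice and 7.68 and 7.29 in the non-acupoint mice. Every injected array was above both controls, and MPTP mouse 2 came closest to them. The difference between MPTP and control was 0.60 ± 0.27 (SE; limma, unadjusted p = 0.0615, adjusted p = 0.714), a 1.52-fold higher level, and it was 0.23 without MPTP mouse 1 and non-acupoint mouse 1. The mean of all injected arrays was 0.72 above that of the controls. Lhx2 ranged from 7.14 in non-acupoint mouse 1 to 7.87 in MPTP mouse 1 and its injected arrays lay on both sides of the controls. The mean of the 15 thalamic neuron markers was 9.18 and 9.30 in the control mice, 9.84 and 9.76 in the MPTP mice, 10.1 on both acupoint arrays and 9.96 and 9.84 in the non-acupoint mice, so that it too was higher on every injected array. The mean of 6 habenula markers was not higher on every injected array. It was 6.34 and 6.33 in the control mice and 6.94 and 6.18 in the MPTP mice. In the acupoint mice it was 6.73 and 7.24, and in the non-acupoint mice 6.06 and 5.89. Both sets of markers were chosen with earlier results of these data known, and their part in the Lhx9 values was not tested.

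**Figure D4:**
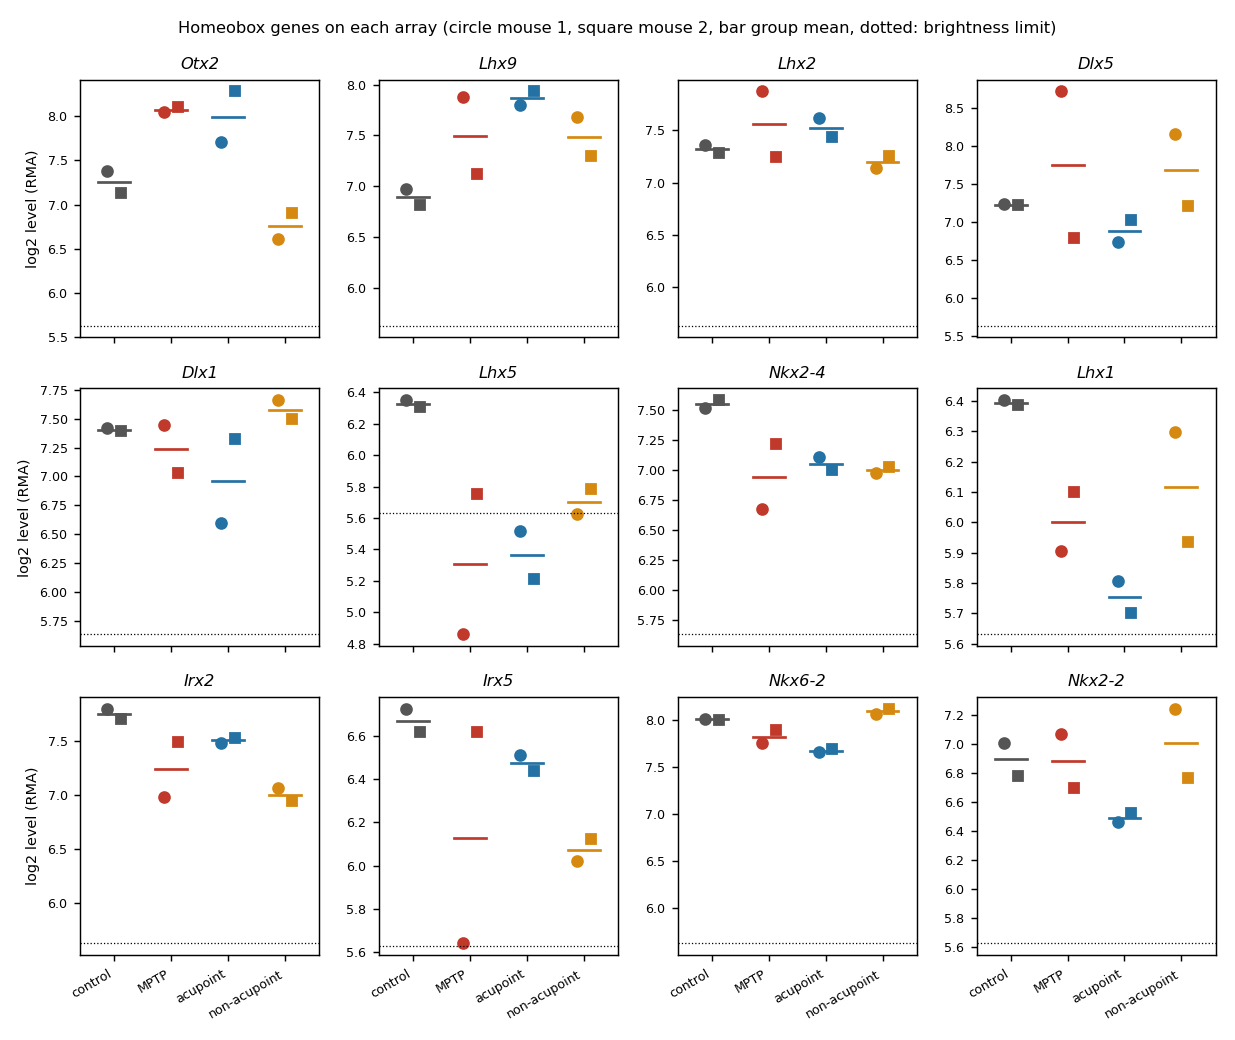
Log2 level (vertical axis) of 12 homeobox genes on each array by group. Circles are mouse 1, squares mouse 2, bars the mean of the 2 mice and the dotted line the brightness limit of 5.63. Otx2 separates the non-acupoint mice from the MPTP and acupoint mice, Lhx5 and Nkx2-4 separate the controls from all injected mice, and Dlx5 is highest in MPTP mouse 1 (8.72) and non-acupoint mouse 1 (8.17).

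Otx2, a factor required for head development and kept on in the adult choroid plexus epithelium, had the smallest unadjusted p of the 43 genes in every comparison but acupoint against MPTP. It stood at 7.38 and 7.13 in the control mice, 8.05 and 8.10 in the MPTP mice, 7.71 and 8.28 in the acupoint mice and 6.61 and 6.91 in the non-acupoint mice. The MPTP and acupoint arrays lay above both controls and the non-acupoint arrays below both. MPTP exceeded control by 0.81 ± 0.22 (SE; limma, unadjusted p = 0.00918, adjusted p = 0.714), or 1.76-fold. Non-acupoint minus MPTP was -1.31 ± 0.22 (SE; limma, unadjusted p = 0.000786, adjusted p = 0.410), and the adjusted p lay between 0.212 and 1 over the 18 alternative settings. Acupoint minus MPTP was -0.08 (limma, unadjusted p = 0.742, adjusted p = 0.939). Acupoint minus non-acupoint was 1.23 ± 0.22 (SE; limma, unadjusted p = 0.0011, adjusted p = 0.755). Without MPTP mouse 1 and non-acupoint mouse 1 the differences were 0.84, -1.19 and 1.09 in the order MPTP minus control, non-acupoint minus MPTP and acupoint minus non-acupoint. These comparisons share the MPTP or the non-acupoint arrays.

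The markers of choroid plexus epithelium ordered the 4 groups as Otx2 did. The mean level of 9 such genes, Otx2 left out, was 6.99 and 7.03 in the control mice, 8.88 and 8.97 in the MPTP mice, 8.34 and 8.91 in the acupoint mice and 5.59 and 5.70 in the non-acupoint mice. All 9 were higher in MPTP than in control mice (median 1.76) and lower in non-acupoint than in MPTP mice (median -2.90), and 3 of the 9 passed the adjusted p (limma) in the second comparison. The part of this tissue in the Otx2 values was not tested. Otx1, the close relative of Otx2 that is used in cortex and midbrain, ranged from 6.29 to 6.69.

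Dlx genes, which specify inhibitory neurons of the ventral forebrain, were measured with Six3, Lhx6 and Lhx8, factors of striatal and other forebrain inhibitory and cholinergic neurons, and with the non-coding Dlx1as and Six3os1. All 9 were at or above the limit. In MPTP against control 5 of 9 were higher and 4 lower (median 0.07), and without the 2 arrays that stood apart 8 of 9 were lower (median -0.21). Dlx5 had the widest range of the 43 tested genes. Its level was 7.24 and 7.22 in the control mice, 8.72 and 6.78 in the MPTP mice, 6.74 and 7.03 in the acupoint mice and 8.17 and 7.22 in the non-acupoint mice. The 2 high arrays were the 2 that stood apart, and the MPTP mice lay on both sides of the controls. MPTP minus control was 0.52 ± 0.61 (SE; limma, unadjusted p = 0.425, adjusted p = 0.735), and -0.45 without the 2 arrays. Dlx1 stood at 7.42 and 7.39 in the control mice, 7.45 and 7.03 in the MPTP mice, 6.60 and 7.32 in the acupoint mice and 7.66 and 7.49 in the non-acupoint mice. Acupoint mouse 1 was the lowest array for Dlx1, Dlx1as, Dlx2, Dlx5, Dlx6 and Lhx8, and every one of the 9 genes had a lower mean in acupoint than in MPTP mice (median -0.16), against 48.7% of all tested probe sets. Without the 2 arrays that stood apart it was 6 of 9 (median -0.04), against 48.2%. None of the 9 had an unadjusted p under 0.05 (limma) in that comparison, with or without them.

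Markers of striatal medium spiny neurons had their highest mean on the same array as Dlx5 and their lowest on the same array as Dlx1. The mean of 9 such markers was 9.84 in MPTP mouse 1 and 7.99 in MPTP mouse 2, 7.72 and 8.84 in the acupoint mice, 8.55 and 8.32 in the non-acupoint mice and 8.69 and 8.77 in the control mice. In non-acupoint mouse 1, where Dlx5 was second highest, it was below both controls. Meis2, a homeobox factor of the striatum outside these families, stood at 8.59 and 8.67 in the control mice, 10.26 and 7.95 in the MPTP mice, 7.87 and 8.69 in the acupoint mice and 9.18 and 8.65 in the non-acupoint mice. The part of neighbouring striatal tissue in the Dlx values was not tested.

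The hypothalamic genes were uniform in direction. All 5, namely Lhx1, Lhx5, Nkx2-1, Nkx2-4 and the dim Six6, had every injected array below both controls, against 9.66% of tested and 15.2% of named dim probe sets. Lhx5 was among the tested genes only through its controls. The distance to the controls was 0.52 for Lhx5, 0.305 for Nkx2-4, 0.09 for Lhx1 and 0.01 for Nkx2-1. Every injected array was also below both controls for 7 of the 17 genes that mark sites away from the thalamus or outside the brain (41.2%). Apart from Nkx2-4 (7.14), the mean levels of the hypothalamic genes were low, from 5.16 for Six6 to 6.07 for Lhx1. The heart gene Nkx2-5 had a mean of 7.03. Whether such levels are background was not tested. Lhx5, a LIM factor of the developing hypothalamus, stood at 6.35 and 6.31 in the control mice, 4.86 and 5.75 in the MPTP mice, 5.52 and 5.21 in the acupoint mice and 5.62 and 5.78 in the non-acupoint mice. The controls were thus above the limit and 4 injected arrays below it. The difference MPTP minus control was -1.02 ± 0.29 (SE), a level 2.03-fold lower, and -0.58 without the 2 arrays. It is given as a description, because the gene passed the brightness limit only through the group in which it was high. Nkx2-4, a sister gene of Nkx2-1, stood at 7.52 and 7.58 in the control mice, 6.68 and 7.21 in the MPTP mice, 7.10 and 6.997 in the acupoint mice and 6.97 and 7.02 in the non-acupoint mice. For Nkx2-4, MPTP minus control was -0.61 ± 0.19 (SE; limma, unadjusted p = 0.0176, adjusted p = 0.714), or 1.52-fold lower, and -0.34 without the 2 arrays.

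Nkx2-1, which specifies ventral hypothalamus and basal forebrain, ranged from 5.35 in MPTP mouse 1 to 6.33 in control mouse 2. Lhx1, a LIM factor kept on in the suprachiasmatic nucleus of the hypothalamus, ranged from 5.70 in acupoint mouse 2 to 6.40 in control mouse 1. In neither needling group against MPTP did any of the 4 tested genes have an unadjusted p under 0.05, and 4 of the 5 genes had a higher mean in each of them than in MPTP mice. This direction turned without the 2 arrays that stood apart. All 5 then had a lower mean in acupoint than in MPTP mice (median -0.23), 2 of the 4 tested with an unadjusted p under 0.05 against 15.4% of all tested probe sets, and 4 of 5 had a lower mean in non-acupoint mice (median -0.16). The mean of 11 other hypothalamic markers was 8.02 and 8.03 in the control mice, 6.69 and 7.52 in the MPTP mice, 6.42 and 7.16 in the acupoint mice and 7.24 and 7.68 in the non-acupoint mice. All 11 had a lower mean in MPTP than in control mice (median -1.11), and 9 of 11 without the 2 arrays (median -0.48). The part of hypothalamic tissue in the 5 genes' values was not tested.

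Irx1, Irx2, Irx3, Irx5 and the non-coding Irx3os, which belong to the Iroquois family that patterns caudal diencephalon and midbrain, were measured with Nkx6-1, a factor of ventral midbrain and hindbrain neurons, and with Otx1. In MPTP against control 6 of these 7 had a lower mean (median -0.37), and 5 of 7 without the 2 arrays that stood apart (median -0.05). Irx2 stood at 7.80 and 7.71 in the control mice, 6.99 and 7.49 in the MPTP mice, 7.48 and 7.53 in the acupoint mice and 7.07 and 6.94 in the non-acupoint mice. Every injected array was below both controls, and the non-acupoint arrays were below both acupoint arrays. For Irx2, MPTP minus control was -0.51 ± 0.19 (SE; limma, unadjusted p = 0.0304, adjusted p = 0.714), and -0.26 without the 2 arrays. Acupoint minus non-acupoint was 0.50 ± 0.19 (SE; limma, unadjusted p = 0.0332, adjusted p = 0.893), and 0.56 without them.

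Irx5 stood at 6.73 and 6.62 in the control mice, 5.64 and 6.62 in the MPTP mice, 6.51 and 6.44 in the acupoint mice and 6.02 and 6.12 in the non-acupoint mice. MPTP mouse 2 was level with the lower control, and MPTP mouse 1 lay far below every other array. For Irx5, MPTP minus control was -0.54 ± 0.30 (SE; limma, unadjusted p = 0.114, adjusted p = 0.714), and -0.06 without MPTP mouse 1 and non-acupoint mouse 1. Irx3, which is expressed beside Irx5 in many tissues, ranged from 6.11 in MPTP mouse 1 to 6.85 in control mouse 1, and Irx1 from 5.97 to 6.66 on MPTP mouse 1 and control mouse 2. The mean of 9 midbrain dopaminergic markers was 8.38 and 8.23 in the control mice, 6.61 and 7.93 in the MPTP mice, 6.54 and 6.39 in the acupoint mice and 6.99 and 7.17 in the non-acupoint mice. All 9 had a lower mean in MPTP than in control mice (median -0.92), and all 9 without the 2 arrays (median -0.29). The order of the arrays for these dopaminergic markers was not that of Irx2, which was higher in acupoint than in non-acupoint mice. Of 13 midbrain factors outside these families, 10 had a higher mean in acupoint than in non-acupoint mice (median 0.045). Without the 2 arrays that stood apart it was 7 of 13 (median 0.02). The part of midbrain tissue in the Irx values was not tested.

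Nkx2-2 and Nkx6-2, both used in the oligodendrocyte lineage, were lowest in the acupoint mice. Nkx6-2 stood at 8.01 and 8.00 in the control mice, 7.76 and 7.89 in the MPTP mice, 7.65 and 7.69 in the acupoint mice and 8.06 and 8.12 in the non-acupoint mice. Both non-acupoint arrays were above every other array. Acupoint minus non-acupoint was -0.42 ± 0.12 (SE; limma, unadjusted p = 0.0124, adjusted p = 0.893). Nkx2-2 stood at 7.01 and 6.78 in the control mice, 7.07 and 6.70 in the MPTP mice, 6.46 and 6.53 in the acupoint mice and 7.25 and 6.77 in the non-acupoint mice. Acupoint minus non-acupoint was -0.51 ± 0.21 (SE; limma, unadjusted p = 0.0493, adjusted p = 0.893), and -0.28 without MPTP mouse 1 and non-acupoint mouse 1. The mean of 7 oligodendrocyte markers ranged from 10.3 to 10.7 over the arrays. It was 10.38 and 10.32 in the acupoint mice and 10.33 and 10.68 in the non-acupoint mice. Non-acupoint mouse 1, the highest array for Nkx2-2, thus lay between the 2 acupoint arrays for the mean of these markers. By gene, 6 of the 7 markers had a lower mean in acupoint than in non-acupoint mice (median -0.19), against 47.7% of all tested probe sets. Without the 2 arrays that stood apart it was all 7 (median -0.34), against 56.7%. The part of oligodendrocytes in the Nkx2-2 and Nkx6-2 values was not tested.

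Another 17 genes mark sites that do not lie near the thalamus or lie outside the brain, such as Dlx3 and Dlx4 of skin and placenta, Nkx2-5 of the heart, Nkx3-2 of the skeleton and Six2 of the kidney. Of these 14 were at or above the limit. Their values lay between 4.82 and 7.38, and 15 of 17 had a lower mean in MPTP than in control mice (median -0.28). Without the 2 arrays that stood apart it was 13 of 17 (median -0.12). Nkx1-2, a factor of the caudal embryo, stood at 6.21 and 6.30 in the control mice, 5.68 and 6.05 in the MPTP mice, 5.87 and 5.86 in the acupoint mice and 6.17 and 6.09 in the non-acupoint mice. Its MPTP minus control difference was -0.39 ± 0.16 (SE; limma, unadjusted p = 0.0447, adjusted p = 0.714), and -0.21 without the 2 arrays. Six2 stood at 6.21 and 5.98 in the control mice, 5.36 and 5.96 in the MPTP mice, 6.01 and 5.95 in the acupoint mice and 5.18 and 5.68 in the non-acupoint mice. Its 2 lowest arrays were again the 2 that stood apart. All injected arrays were below both controls for 7 of the 17 genes (41.2%), among them the dim Nkx2-3 of gut and spleen, against 9.66% of tested and 15.2% of named dim probe sets.

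The 38 Hox genes, which give segments of hindbrain and spinal cord their identity, were mostly dim. The exceptions were Hoxa4, Hoxb1, Hoxb3 and Hoxb9, and 29 of 38 had all 8 arrays under the limit. Their values lay between 3.47 and 6.93. In MPTP against control 37 of 38 had a lower mean (median -0.22), against 66.8% of all named dim probe sets (median -0.08). This held in each chromosomal cluster, with 10 of 10 genes lower in cluster A, 9 of 9 in B, 8 of 9 in C and 10 of 10 in D, and with medians of -0.21, -0.25, -0.14 and -0.23. MPTP mouse 1 was the lowest array for 17 of 38 Hox genes (44.7%), against 17.3% of all named dim probe sets, and control mouse 2 was the highest for 20 (52.6%), against 23.9%. Without MPTP mouse 1 and non-acupoint mouse 1, 21 of 38 had a lower mean (median -0.02), against 59.6% of the named dim probe sets. All injected arrays were below both controls for 7 of the 38 Hox genes (18.4%), a share near the 15.2% of named dim probe sets. Over the 38 dim homeobox genes of all families, 34 of them Hox, it was 9 (23.7%). Dim probe sets report small differences poorly, and these counts describe the arrays.

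Needling was set against MPTP alone and the 2 needling sites against each other. In acupoint against MPTP none of the 43 tested homeobox genes had an adjusted p under 0.05 (0% of all tested probe sets), and none had an unadjusted p under 0.05 by limma (1.37% of all). In non-acupoint against MPTP none passed the adjusted p (0.0443% of all) and 1, Otx2, had an unadjusted p under 0.05 (1.56% of all). In acupoint against non-acupoint none passed the adjusted p (0% of all), while 4 of 43, Otx2, Irx2, Nkx6-2 and Nkx2-2, had an unadjusted p under 0.05 (1.89% of all). Without the 2 arrays that stood apart the unadjusted counts were 9 of 43 (20.9%) in acupoint against MPTP, where 15.4% of all probe sets had such a p, 9 of 43 in non-acupoint against MPTP (15.3% of all) and 12 of 43 (27.9%) in acupoint against non-acupoint (8.95% of all). The median difference over all 81 genes was 0.00 for acupoint minus MPTP, -0.06 for non-acupoint minus MPTP and 0.11 for acupoint minus non-acupoint. With the 2 arrays left out it was -0.14 with 66 of 81 lower, -0.21 with 67 of 81 lower and 0.09 with 26 of 81 lower, in the same order, where 48.2%, 41.8% and 56.7% of all tested probe sets were lower. Of the 38 dim genes, 6 (15.8%) had a lower mean in acupoint than in non-acupoint mice, against 50.3% of named dim probe sets. With the 2 arrays left out it was 9 (23.7%), against 39.9%. The comparisons share arrays and are not independent of each other.

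Regional transcription factors outside these families were read in the same way. All 10 thalamic and habenular factors had a higher mean in MPTP than in control mice (median 0.56), 5 of the 9 tested with an unadjusted p under 0.05 against 5.29% of all tested probe sets, and 9 of 10 without the 2 arrays that stood apart (median 0.36). Prox1, a homeobox factor of thalamic neurons, stood at 7.86 in both control mice, 9.80 and 8.59 in the MPTP mice, 9.14 and 8.92 in the acupoint mice and 9.67 and 8.80 in the non-acupoint mice. Every injected array was above the controls for 8 of these 10, as for Lhx9, against 10.3% of tested and 1.43% of named dim probe sets. Of these 8, Tcf7l2, Lef1, Rora and Zic1 were also among the thalamic neuron markers given with Lhx9. The 2 lists are thus not independent of each other. All 12 hypothalamic factors (median -0.30), all 13 measured midbrain factors (median -0.41) and all 6 measured hindbrain factors (median -0.24) had a lower mean in MPTP mice. With the 2 arrays left out it was 9 of 12, 11 of 13 and 4 of 6, with medians of -0.19, -0.14 and -0.06. En1 and Pitx3 of the midbrain factors were also among the midbrain dopaminergic markers given with the Irx genes. Those lists are thus not independent of each other either. An unadjusted p under 0.05 was found for 2 of 10 tested hypothalamic and 2 of 10 tested midbrain factors, against the same 5.29%, and none of these lists' genes passed the adjusted p by limma. Gata3, a zinc finger factor of midbrain inhibitory neurons, stood at 7.18 and 7.01 in the control mice, 5.56 and 6.28 in the MPTP mice, 6.23 and 5.78 in the acupoint mice and 6.07 and 5.72 in the non-acupoint mice. MPTP minus control was -1.17 ± 0.28 for Gata3 (SE; limma, unadjusted p = 0.00511, adjusted p = 0.659). The part of tissue outside the thalamus in these lists' values was not tested. The 10 forebrain inhibitory and striatal factors were split, with 6 higher and 4 lower (median 0.03), and without the 2 arrays 4 were higher and 6 lower (median -0.09). Of 8 cortical and hippocampal factors 5 were lower (median -0.08), and all 8 without the 2 arrays (median -0.27).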

How the data were processed

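RNA of each mouse was hybridised to an Affymetrix whole-transcript array, from 300 ng total RNA per the labels' protocols. The deposited values are log2 levels that the authors made with Affymetrix Expression Console and RMA, per the submitters' processing notes. No tool version is given in the sources used here. RMA draws arrays towards 1 distribution and compresses small differences of dim probe sets. Array medians were 6.18 to 6.29.

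The members and gene lists were chosen with earlier results of these data known. Probe sets were named through the platform annotation. Of 35557 probe sets, 15791 named ones at or above the limit were fitted with R 4.3.3 and limma 3.58.1 (group means, eBayes, 4 residual degrees of freedom, two-sided p, Benjamini-Hochberg over all). Levels per array were given for tested members with a range of at least 1 log2 unit or an unadjusted p under 0.05, and outside the families for genes among the 3 of widest range in a list. The fit was tested on simulated data. The alternatives were 2 normalizations, 2 filters, 2 other weightings, fewer groups, a replicate block, 1 probe set per gene, 6 arrays and leaving out each mouse.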

Additional observations from a re-analysis of the deposited data

How the results depend on the processing

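The precision is limited by 2 arrays per group, and levels near the brightness limit say little about direction. No homeobox gene passed the adjusted p in any of the 4 comparisons under any of 18 alternatives. Of 25 differences and medians followed, 20 kept their sign in all 18. The exceptions were Dlx1 and Dlx5 in MPTP against control, Otx2 in acupoint against MPTP, and the medians of the forebrain group and of all tested probe sets. For a single gene, only the normalizations and the dropping of arrays from the compared groups could turn a sign. The other settings leave its group means as they are, so signs kept there say nothing about stability. Most gene differences followed also had an unadjusted p under 0.05 (limma) in the main fit, which makes a turned sign less likely. The count of genes with all injected arrays below the controls was 16 (37.2%, against 9.66% of all tested probe sets). It was 15 after another quantile normalization (34.9%, against 11.4%) and 14 after cyclic loess (32.6%, against 10.4%). With no brightness filter it was 25 of 81 genes (30.9%, against 11.5%). With the dimmest 60% left out it was 2 of 9 genes (22.2%, against 8.31%). It was 16 to 25 when a mouse was left out in turn (37.2% to 58.1%, against 10.4% to 17.4%). The highest of these, 25, came without control mouse 1. A count of this kind cannot fall when a mouse is left out. The fewer or added genes tested set the counts under the filters. Hoxd3os1, the single gene with more than 1 probe set, had means of 5.14 and 5.01 on them.

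The titles number the mice, but the numbers did not pair them, since the deviations of same-numbered mice correlated between -0.28 and 0.82 over the pairs of groups. With the mouse number as a replicate block, 0 homeobox genes passed the adjusted p, and Otx2 in non-acupoint minus MPTP was -1.31 (limma, unadjusted p = 0.000793, adjusted p = 0.404).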
